A study of Mus musculus with 3 samples.

Results

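Rbm10 was 1 of 4 genes targeted in a pooled screen for suppressors of lung tumour growth in mice, and all barcodes carried by its 2 guides, Rbm10#1 and Rbm10#2, were taken as its members. The pool held 13 guides, 8 against the 4 genes and 5 inert ones that cut no gene expected to matter for growth. Rbm10 guides accounted for 203387 of the 1318841 listed barcodes, and for 9180 of the 57536 tumours of at least 500 neoplastic cells. Rbm10#1 marked 6488 of these tumours and Rbm10#2 marked 2692.

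The method, tumour barcoding with deep sequencing (Tuba-seq), delivers to the mouse lung lentiviral vectors that each carry Cre recombinase, a guide RNA and a random barcode. Every infected cell founds a clone with a barcode of its own, so clones can be counted and sized from the reads of their barcodes. Lungs were taken about 15 weeks after infection from 17 mice of 3 genotypes, which received the same viral pool through the trachea. By the usage of this field, T is a fluorescent reporter switched on by Cre, C is Cas9 and P a p53 gene deleted by Cre. All mice shared the alleles written K and T. The KT mice (4, of which 2 were female and 2 male) had no Cas9, the KTC mice (9, of which 5 were female and 4 male) had Cas9 and wild-type p53, and the KPTC mice (4, all male) had Cas9 and the p53 alteration. The sources used here give neither ages nor strain backgrounds. The virus reached only part of the lung cells, Cre acted in any cell it entered, and no guide can edit in KT mice, which therefore gave each guide's share of the virus. The barcodes carry no cell type marker, so the labelled lung epithelial origin was not checked. How completely Rbm10 was cut in a clone was not measured, and clones that escaped cutting count among the Rbm10 clones of KTC and KPTC mice.

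Rbm10 encodes an RNA-binding protein with RNA recognition motifs and zinc fingers that takes part in the splicing of precursor mRNA, where it promotes the skipping of many alternative exons. The gene lies on the X chromosome, so a male cell has a single copy and a female cell has 1 active copy. In human lung adenocarcinoma RBM10 is recurrently mutated, mostly by changes that truncate the protein, and it is counted among the tumour suppressors of that disease.

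Each clone is known by its barcode, and the barcode of the largest Rbm10 tumour of each genotype is shown because the cell numbers below rest on such sequences. All barcodes have 30 bases, of which 20 are random (capitals) and the rest are fixed spacers (lower case). The sequences are those of the deposited files, in the orientation given there.
Largest KT tumour, Rbm10#2, KT mouse 4: gcGCGGAtaTGAACgcTAAGGtaCAGAGgc
Largest KTC tumour, Rbm10#2, KTC mouse 2: gcATCGCtaCCAGCgcCCCCCtaCGCACgc
Largest KPTC tumour, Rbm10#1, KPTC mouse 4: gcTATTGtaTGTCGgcGTTTGtaTCCTAgc
The first of these tumours held 239712 cells, the second 167886 cells and the third 1187339 cells. The barcode of the first was also listed in KTC mouse 8, with 2 reads worth 4.63 cells, and the barcodes of the other two were listed in no other mouse. Of 186169 distinct Rbm10 barcodes, 15562 (8.36%) were listed in more than 1 mouse, and 1570 of the 9180 Rbm10 tumours (17.1%) had a barcode that another mouse also listed.

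Depth differed between mice. Recovered reads per mouse ran from 338871 to 10456647, and 1 read was worth 1.08 cells in KT mouse 4 but 132 cells in KPTC mouse 1. A clone of 500 cells stood for 465 reads in the former and 3.80 reads in the latter. PCR reads carry no molecular identifier, so reads are not independent molecules. KTC mouse 6 stood apart, with 28 Rbm10 and 29 inert tumours of at least 500 cells, beside 95 to 2170 Rbm10 tumours in the other KT and KPTC mice and 69 to 772 in the other KTC mice. All values below are log2 ratios of Rbm10 to the inert guides of the same mouse unless cells are named. The mouse was the replicate, and p-values came from exact permutation of the mouse labels, two-sided, adjusted over the 4 targeted genes by the Benjamini-Hochberg method with a threshold of 0.05.

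The Rbm10 share of clones moved with clone size where Cas9 was present. With Cas9 and wild-type p53, Rbm10 guides were scarcer than in KT mice among small clones and more abundant among large ones. Without Cas9, pooled over mice, 30.3 Rbm10 clones were listed for every 100 inert clones under 50 cells, and the ratio stayed between 27.2 and 31.8 in every class up to 5000 cells and more. In KTC mice the ratio was 25.5 under 50 cells, 24.2 from 50 to 100 cells, 23.2 from 100 to 200 cells and 25.05 from 200 to 500 cells. It then rose with size, to 32.8 from 500 to 1000 cells, 38.0 from 1000 to 2000 cells, 48.2 from 2000 to 5000 cells and 66.9 at 5000 cells and more. The crossing point of these pooled ratios with KT thus lay close to 500 cells, the minimum for a tumour. Single mice differed, as from 500 to 1000 cells 6 of 9 KTC mice lay above every KT mouse and 2 below. Pooled KTC tumours of 10000 to 20000 cells were 78 with Rbm10 guides and 82 with the 5 inert guides (95.1 per 100). The neighbouring classes were lower, with 57.7 per 100 from 5000 to 10000 cells and 21 Rbm10 against 30 inert tumours at 20000 cells and more. In KPTC mice the pooled ratio lay between 23.8 and 25.9 in every class up to 5000 cells and was 39.8 at 5000 cells and more. Those pooled values join different mice, since KPTC mouse 1 listed no clone under 200 cells and KPTC mouse 3 none under 50 cells. Within KPTC mouse 2 the log2 ratio was -1.75 under 50 cells and -2.33 from 2000 to 5000 cells, and then -1.55 at 5000 cells and more. KPTC mouse 4, which also listed clones in every class, stood at -2.04, -1.87 and -0.88 in the same classes, so it did not fall.

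**Figure D1:**
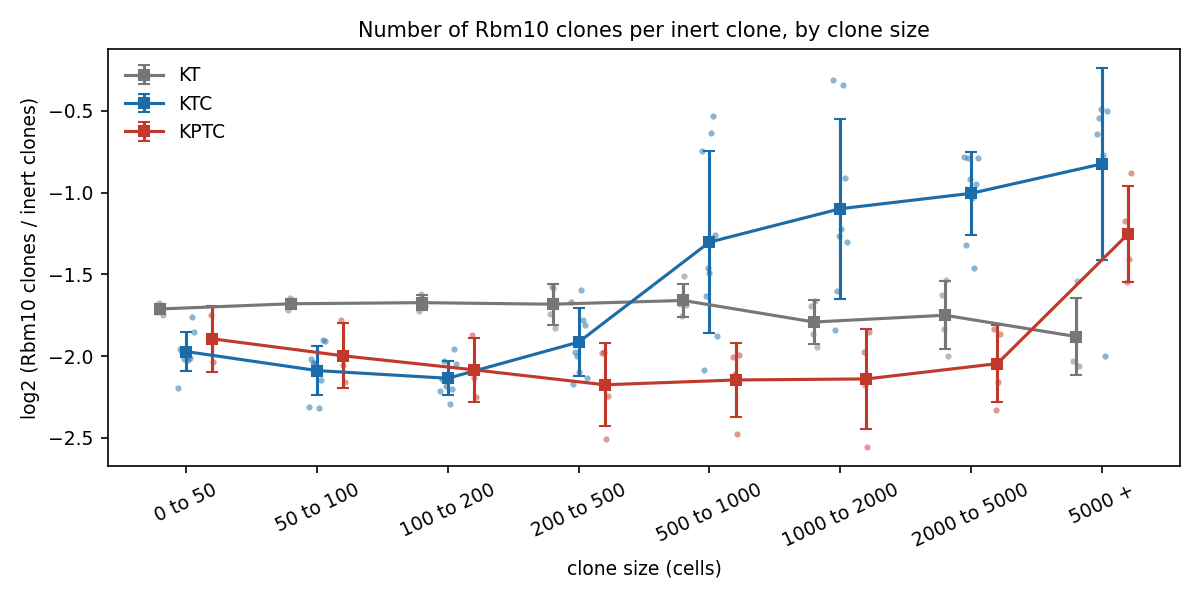
Log2 of the number of Rbm10 clones over the number of inert clones, on the vertical axis, in 8 classes of clone size in cells, on the horizontal axis. Small points are mice with at least 10 inert clones in the class, and squares with bars are the mean ± SD over mice of KT (grey), KTC (blue) and KPTC (red). The KT line is nearly level, the KTC line starts below it and ends above it, and the KPTC line stays below it until the last class.

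Tested per mouse, over mice with at least 10 inert clones in the class, the shortfall of small Rbm10 clones in KTC relative to KT was -0.26 under 50 cells, -0.41 from 50 to 100 cells and -0.46 from 100 to 200 cells. In each of these classes 9 of 9 KTC mice lay below every KT mouse (adjusted p = 0.0056, exact permutation), and of the 4 targeted genes 25%, 25% and 50% passed. At 200 to 500 cells (-0.23), 500 to 1000 cells (0.36) and 1000 to 2000 cells (0.69) Rbm10 did not pass (adjusted p = 0.14, 0.52 and 0.097, exact permutation), where 25%, 25% and 0% of the genes did. From 2000 to 5000 cells Rbm10 clones were in excess by 0.75, with 8 of 8 KTC mice above every KT mouse (adjusted p = 0.0081, exact permutation). At 5000 cells and more the excess was 1.05, with 5 of 6 mice above every KT mouse (adjusted p = 0.033, exact permutation). In both of these large classes 100% of the genes passed, so an excess there was shared by the whole targeted pool. In KPTC no class passed for any gene (0%), and under 50 cells none could, because only 2 KPTC mice listed such clones and 2 against 4 mice give no p under 0.067. From 50 to 200 cells 3 KPTC mice could be used. In each class from 50 to 1000 cells the unadjusted Rbm10 p was 0.029 (exact permutation), the smallest that 3 or 4 against 4 mice allow. Whether Rbm10 passed there after adjustment depended on the other genes. Rbm10 lay below every KT mouse in 4 of 4 KPTC mice at 200 to 500 cells (-0.49) and at 500 to 1000 cells (-0.49), and above every KT mouse in 3 of 4 at 5000 cells and more (0.63; adjusted p = 0.057, 0.057 and 0.076, exact permutation).

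The change with size was also taken within each mouse, as the log2 ratio at 2000 cells and more minus that at 200 to 500 cells, a measure chosen after the size classes had been seen. In KT mice 1 to 4 it was -0.023, -0.28, 0.049 and -0.19. Without Cas9 the Rbm10 share thus varied little between small and large clones. In the 8 KTC mice with enough inert clones it ran from 0.41 (mouse 7) through a median of 1.18 to 1.45 (mouse 9). Every one of them lay above 0 (exact sign-flip test, p = 0.0078, the smallest that 8 mice allow) and above every KT mouse. In KPTC mice 1 to 4 it was 0.47, 0.15, 0.83 and 0.86, again above every KT mouse, and 4 mice cannot give a sign-flip p under 0.125. The excess over KT was 1.18 in KTC (adjusted p = 0.0020, exact permutation), where 100% of the genes passed, and 0.69 in KPTC (adjusted p = 0.038, exact permutation), where 75% passed. The KTC call held with either Rbm10 guide alone, with either set of inert guides and without any 1 mouse. The KPTC call ended without any 1 of the 4 KT mice (0.63 to 0.74, adjusted p = 0.076, exact permutation). KTC and KPTC differed by 0.49, which did not pass (adjusted p = 0.061, exact permutation; 25% of genes passed). It passed without KTC mouse 7 (0.58) or without KTC mouse 8 (0.56; adjusted p = 0.030 and 0.042, exact permutation).

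Among small clones, those under 500 cells, Rbm10 guides were depleted in both Cas9 genotypes. The log2 ratio of small-clone number in KT mice 1 to 4 was -1.73, -1.65, -1.67 and -1.74, a spread of 0.04 (SD). In KTC mice it ran from -2.20 (mouse 1) through a median of -2.03 to -1.81 (mouse 8), and in KPTC mice 1 to 4 it was -1.98, -1.85, -2.14 and -2.12. No mouse with Cas9 reached the lowest KT mouse. The KTC ratio was 0.807 times that of KT (log2 difference -0.31, 9 of 9 mice below every KT mouse, adjusted p = 0.0056, exact permutation), and the KPTC ratio 0.799 times (-0.32, 4 of 4 mice below, adjusted p = 0.038, exact permutation). Of the 4 genes, 50% passed in KTC and 75% in KPTC. The other passing gene in KTC was also lower than in KT (-0.17). In KPTC the other passing genes went both ways (-0.26 and 0.15). KTC and KPTC differed by 0.01 (adjusted p = 0.94, exact permutation), and 0% of the genes passed there.

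The shortfall of small Rbm10 clones was several times larger than the differences among inert guides. Each inert guide set against the other 4 differed from KT by -0.048 to 0.029 in KTC and by -0.083 to 0.043 in KPTC. In KTC 2 of the 5 inert guides had an unadjusted p under 0.05 (exact permutation, smallest adjusted p = 0.049), so shifts of that small size passed the test too. The KTC value stayed between -0.33 and -0.29 without any 1 mouse (adjusted p 0.0081 to 0.018, exact permutation). The KPTC call ended in each of the 8 settings without 1 mouse (-0.38 to -0.29, adjusted p 0.057 to 0.076, exact permutation). Where a KPTC mouse was left out, the unadjusted p stayed at 0.029 (exact permutation), the smallest that 3 against 4 mice allow. Those losses depended on the other genes. The smallest size that a mouse lists moved with depth, between 2.15 cells (KT mouse 4) and 263 cells (KPTC mouse 1), and its part in these values was not tested. Restricting both sets to 50 to 500 cells left the shortfalls at -0.40 in KTC (adjusted p = 0.0056, exact permutation) and -0.37 in KPTC. KPTC mouse 1 listed no clone under 263 cells, so its value did not change and the size range still differed between mice. The KPTC value no longer passed (adjusted p = 0.057, unadjusted p = 0.029, exact permutation), the latter the smallest that 4 against 4 mice allow.

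**Figure D2:**
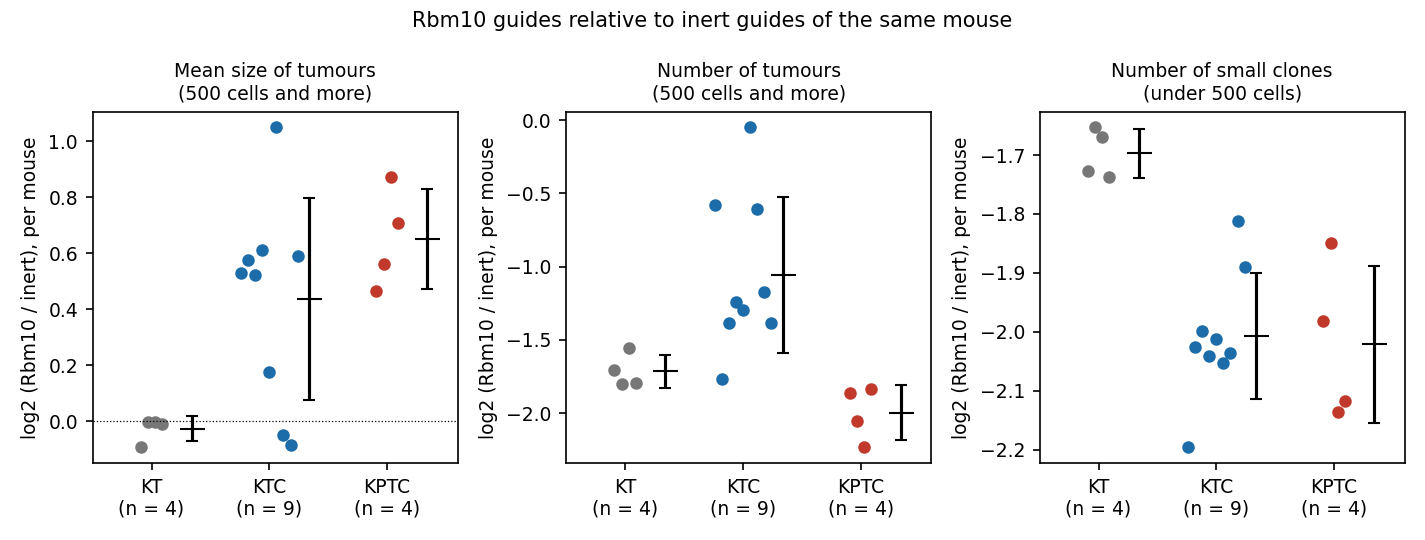
Log2 ratio of Rbm10 to inert guides per mouse, on the vertical axes, for the mean size of tumours of at least 500 cells (left), the number of such tumours (middle) and the number of clones under 500 cells (right), with the genotypes on the horizontal axes. Points are mice (4 KT, 9 KTC and 4 KPTC) and bars are the mean ± SD. In the right panel every KTC and KPTC mouse lies below the KT mice, and in the middle panel every KTC mouse lies above the KPTC mice.

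Tumours of at least 500 cells were compared in size next, as the log-normal mean, which weighs large tumours more than the median does. In KT mice 1 to 4 the Rbm10 tumours had mean sizes of 1686, 1476, 1763 and 1317 cells, beside 1797, 1477, 1765 and 1325 cells for inert tumours. Rbm10 and inert tumours were thus of nearly the same size without Cas9, at log2 ratios of -0.09 to -0.0016. In KTC mice the Rbm10 mean size ran from 1065 cells (mouse 8) through a median of 1661 to 2559 cells (mouse 9), and that of inert tumours from 666 (mouse 6) through 1470 to 1699 cells (mouse 9). The log2 ratio ran from -0.09 (mouse 8) through a median of 0.53 to 1.05 (mouse 6). In KPTC mice 1 to 4 the Rbm10 tumours had mean sizes of 2836, 3342, 5062 and 2926 cells, beside 2056, 2265, 2768 and 1793 cells for inert tumours, at log2 ratios of 0.46, 0.56, 0.87 and 0.71.

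Rbm10 tumours were larger relative to inert tumours with Cas9 than without. The mean log2 ratio ± SD was -0.03 ± 0.04 over 4 KT mice, 0.44 ± 0.36 over 9 KTC mice and 0.65 ± 0.18 over 4 KPTC mice. KTC lay 1.38-fold above KT with 7 of 9 mice above every KT mouse (adjusted p = 0.032, exact permutation), and KTC mice 7 and 8 were at -0.05 and -0.09, within the KT range. KPTC lay 1.60-fold above KT with 4 of 4 mice above (adjusted p = 0.029, exact permutation). In both comparisons 100% of the 4 genes passed. Inert guides set against each other differed from KT by -0.10 to 0.19 in KTC and by -0.06 to 0.05 in KPTC. Both Rbm10 calls ended without any 1 KT mouse (0.44 to 0.47 in KTC and 0.65 to 0.68 in KPTC, adjusted p 0.082 to 0.091 and 0.057, exact permutation). In KPTC the unadjusted p stayed at 0.029 (exact permutation), the smallest that 4 against 3 mice allow, so those losses depended on the other genes. KTC and KPTC differed by -0.22 (adjusted p = 0.48, exact permutation; 25% of genes passed). That difference changed direction when as many of the largest Rbm10 clones were taken as the KT number ratio predicts, to 0.70 (adjusted p = 0.14, exact permutation).

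Among percentiles of tumours of at least 500 cells, Rbm10 in KTC passed at lower ones and not at the upper end, where mice differed most. Relative to KT, the difference in log2 ratio was 0.26 at the 50th percentile (adjusted p = 0.0056, exact permutation; 50% of genes passed) and 0.44 at the 80th (adjusted p = 0.045, exact permutation; 100% passed). It was 0.72 at the 95th and 0.81 at the 99th, neither of which passed (adjusted p = 0.092 and 0.38, exact permutation; 75% and 25% passed). At the 99th percentile 4 of 9 KTC mice lay above every KT mouse and 1 below every KT mouse. The SD over KTC mice was 0.12 at the 50th percentile and 1.71 at the 99th. In KPTC the difference was 0.20 at the 50th percentile, 0.98 at the 80th, 0.59 at the 95th and 0.50 at the 99th (adjusted p = 0.038, 0.057, 0.029 and 0.038, exact permutation; 75%, 0%, 100% and 75% passed). At the 80th percentile in KPTC the unadjusted p was 0.029 (exact permutation), the smallest that 4 against 4 mice allow. Clones that grow past 500 cells enter at the low end, so these percentiles are not over the same clones in each genotype.

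Relative to inert tumours of the same mouse, Rbm10 tumours of at least 500 cells were more numerous in KTC mice and less numerous in KPTC mice than in KT mice. The counts themselves were highest in KT, with a mean of 1235 Rbm10 tumours per mouse beside 294 in KTC and 399 in KPTC. The KT mice 1 to 4 held 2170, 988, 1445 and 336 Rbm10 tumours, at log2 ratios to inert tumours of -1.71, -1.80, -1.56 and -1.80. In KTC mice the tumours numbered from 28 (mouse 6) through a median of 263 to 772 (mouse 2), and the log2 ratio ran from -1.76 (mouse 2) through -1.24 to -0.05 (mouse 6). The KPTC mice 1 to 4 held 805, 558, 95 and 137 Rbm10 tumours, at log2 ratios of -1.86, -2.05, -2.23 and -1.83. The KPTC mice thus lay below all KT mice and the KTC mice, with 1 exception, above them.

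The number ratio in KTC was 1.58-fold that of KT (0.66 on the log2 scale, 8 of 9 mice above every KT mouse, adjusted p = 0.029, exact permutation; 100% of genes passed). The KPTC ratio was 0.824 times that of KT (-0.28, 4 of 4 mice below every KT mouse, adjusted p = 0.038, exact permutation; 75% of genes passed). The other genes that passed there rose, by 0.70 and 0.22, so the fall of Rbm10 was not shared by them. KTC and KPTC differed by 1.92-fold, and 9 of 9 KTC mice lay above every KPTC mouse (log2 difference 0.94, adjusted p = 0.028, exact permutation; 75% of genes passed). The other genes that passed in this comparison went both ways, at 1.04 and -0.23. The 3 highest KTC ratios, -0.05, -0.58 and -0.61 in mice 6, 1 and 7, were those of the mice with the fewest inert tumours (29, 323 and 105), and the part of inert tumour number in the excess was not tested. Without KTC mouse 6 the KTC excess was 0.54 over KT (adjusted p = 0.030, exact permutation) and 0.82 over KPTC (adjusted p = 0.016, exact permutation). The KTC call against KT ended without any 1 KT mouse (0.63 to 0.71, adjusted p 0.059 to 0.068, exact permutation) and at a minimum of 200 cells (0.05, adjusted p = 0.68, exact permutation). The KPTC call against KT ended without any 1 KT mouse or without KPTC mouse 3 (-0.31 to -0.20), and its direction turned at a minimum of 5000 cells (0.63). The difference between KTC and KPTC lost its call without KPTC mouse 3 (0.86, adjusted p = 0.073, exact permutation).

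Burden, the summed cells of Rbm10 tumours relative to those of inert tumours, joined size and number and was uneven between mice. The log2 ratio in KT mice 1 to 4 was -1.80, -1.77, -1.62 and -1.34. In KTC mice it ran from -1.74 (mouse 8) through a median of -0.92 to 1.72 (mouse 6), and in KPTC mice 1 to 4 it was -1.36, -1.20, -1.68 and 0.34. KTC mouse 6 and KPTC mouse 4 lay far above the other mice of their genotypes. The KTC burden was 2.17-fold that of KT (1.12 on the log2 scale, 8 of 9 mice above every KT mouse, adjusted p = 0.048, exact permutation; 100% of genes passed), and that call ended in 9 of the 13 settings without 1 mouse. The KPTC burden was 1.58-fold that of KT (log2 difference 0.66) and did not pass (exact permutation, p = 0.14; 75% of genes passed), and without KPTC mouse 4 the difference was 0.23. KTC and KPTC differed by 0.46 (adjusted p = 0.71, exact permutation; 25% of genes passed), which ran from 0.18 without KTC mouse 6 to 0.89 without KPTC mouse 4.

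Single tumours carried much of the Rbm10 burden in some mice. The tumour of 1187339 cells in KPTC mouse 4, whose barcode is shown above, made up 72.6% of all Rbm10 tumour cells of that mouse, and the next Rbm10 tumour there had 54837 cells. In KTC mouse 6 the largest tumour, of 37544 cells, made up 58.9%, and in KT mouse 4 the tumour of 239712 cells made up 33.8%. In KTC mice the largest Rbm10 tumour ran from 16060 cells through a median of 37544 to 167886 cells. The largest tumour of every gene and the largest inert tumour were then dropped in each mouse. The burden difference was 1.07 in KTC (adjusted p = 0.015, exact permutation) and 0.24 in KPTC (adjusted p = 0.057, exact permutation).

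The guides were then compared, since both cut the same gene and lay in every mouse. Rbm10#1 marked more clones than Rbm10#2 in each genotype. The log2 ratio of the number of Rbm10#2 to Rbm10#1 tumours was -1.27 ± 0.16 over 4 KT mice, -1.34 ± 0.29 over 9 KTC mice and -1.37 ± 0.19 over 4 KPTC mice (mean ± SD). Among tumours the guides thus stood in nearly the same proportion with and without Cas9, and the differences from KT were -0.07 in KTC and -0.09 in KPTC (exact permutation, p = 0.70 and 0.43).

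In size, Rbm10#1 tumours stood to inert tumours at 0.18, 0.49, 0.51, 0.46, 0.25, 1.36, -0.13, -0.13 and 0.61 in KTC mice 1 to 9. The Rbm10#2 tumours stood at 1.24, 0.76, 0.55, 1.03, -0.02, 0.37, 0.23, 0.0025 and 0.54 in the same mice. Neither guide was the larger throughout, with Rbm10#2 ahead in 6 of 9 mice (mean difference 0.12 ± 0.57, SD, exact sign-flip test, p = 0.52). In KPTC mice 1 to 4 Rbm10#1 stood at 0.32, 0.67, 0.86 and 1.02, and Rbm10#2 at 0.87, 0.27, 0.88 and -0.20 (mean difference -0.27 ± 0.75, SD, n = 4, exact sign-flip test, p = 0.75). The 4 KPTC mice give no sign-flip p under 0.125, and the spread leaves room for sizeable differences between the guides either way.

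**Figure D3:**
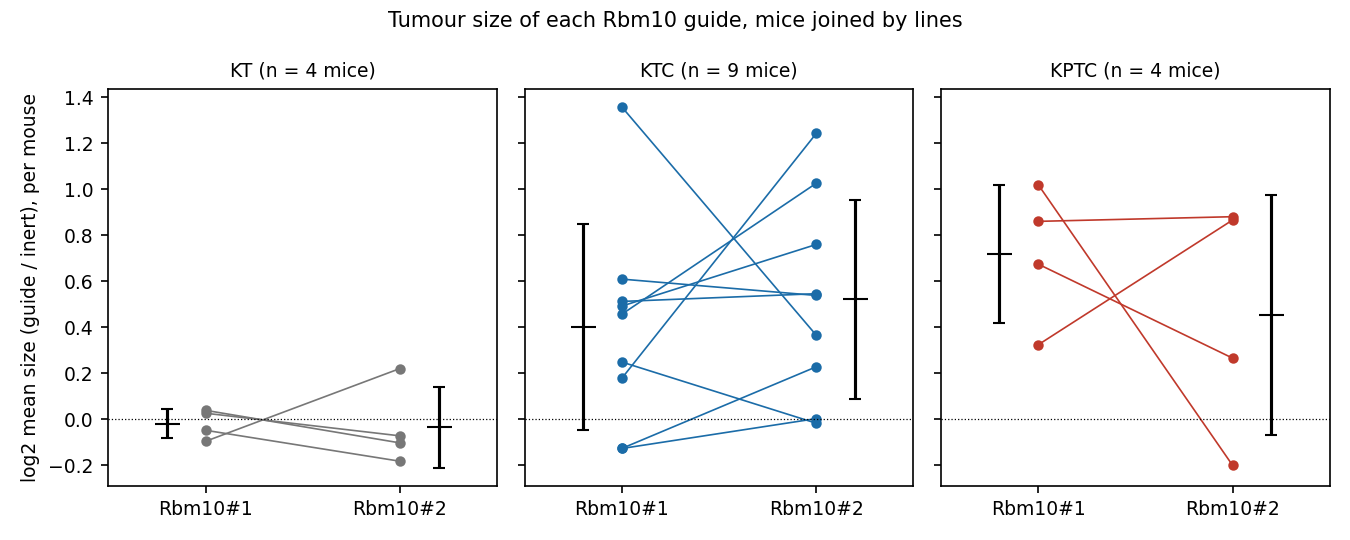
Log2 ratio of the mean tumour size of Rbm10#1 and Rbm10#2 to that of inert guides, on the vertical axis, for each guide on the horizontal axis, in KT (4 mice), KTC (9 mice) and KPTC (4 mice). Points are mice, lines join the guides of a mouse, and bars are the mean ± SD. Lines cross in each genotype, so neither guide gave the larger tumours in all mice.

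With each guide tested alone and p-values adjusted over the 8 targeting guides, Rbm10#2 passed for size in KTC (1.47-fold, adjusted p = 0.041, exact permutation) and Rbm10#1 did not (1.34-fold, adjusted p = 0.095, exact permutation). In KPTC Rbm10#1 passed (1.67-fold, adjusted p = 0.038, exact permutation) and Rbm10#2 did not (1.40-fold, adjusted p = 0.20, exact permutation). Of the 8 guides 87.5% passed for size in KTC and 75% in KPTC. For number, Rbm10#1 passed in KTC (0.68, adjusted p = 0.039, exact permutation), and Rbm10#2 was at 0.61 (adjusted p = 0.066, exact permutation; 75% of guides passed). In KPTC the guides were at -0.25 and -0.35 (adjusted p = 0.091 and 0.057, exact permutation; 0% of guides passed). The unadjusted p of Rbm10#2 there was 0.029 (exact permutation), the smallest that 4 against 4 mice allow.

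The shortfall of small clones was carried by both guides. In KTC it was -0.31 for Rbm10#1 and -0.31 for Rbm10#2, each with 9 of 9 mice below every KT mouse (adjusted p = 0.0056, exact permutation; 37.5% of guides passed). In KPTC it was -0.27 for Rbm10#1 and -0.45 for Rbm10#2, each with 4 of 4 mice below (adjusted p = 0.046, exact permutation; 62.5% of guides passed). The passing guides in KPTC included the guide against Apc, which was higher than in KT (0.15). The log2 ratio of Rbm10#2 to Rbm10#1 among small clones was -1.22 ± 0.06 over 4 KT mice, -1.21 ± 0.07 over 9 KTC mice and -1.39 ± 0.10 over 4 KPTC mice (mean ± SD). From KT it differed by -0.18 in KPTC (exact permutation, p = 0.029, not adjusted, the smallest that 4 against 4 mice allow). In KTC it differed from KT by 0.0030 (exact permutation, p = 0.92). Rbm10#2 was thus lower relative to Rbm10#1 in KPTC than in KTC, where 9 of 9 mice lay above every KPTC mouse (difference 0.18, exact permutation, p = 0.0028, not adjusted). Inert guides also shifted between KTC and KPTC, by -0.046 to 0.11, and the largest of these shifts, that of NT1, passed (adjusted p = 0.0070 over the 5 inert guides, exact permutation).

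Rbm10 was set against the other targeted genes within each mouse: Ambra1, a substrate adaptor of a ubiquitin ligase that acts on D-type cyclins, Rb1, which restrains entry into S phase, and Apc, a negative regulator of Wnt signalling. In KTC mice, Rbm10 tumours were smaller than Ambra1 tumours by a log2 difference of -1.18 ± 0.43 and than Apc tumours by -0.43 ± 0.40, each in 9 of 9 mice (SD, exact sign-flip test, adjusted p = 0.0059). Against the same difference in KT mice, the gap to Ambra1 was -1.27 (adjusted p = 0.0042, exact permutation), and that to Apc was -0.27 and did not pass (adjusted p = 0.35, exact permutation). Rbm10 and Rb1 tumours differed by -0.08 ± 0.38 (SD, n = 9, exact sign-flip test, adjusted p = 0.54), with Rbm10 higher in 4 of 9 mice. With a minimum of 200 cells the direction turned and passed, Rbm10 tumours being larger than Rb1 tumours by 0.22 (adjusted p = 0.029, exact sign-flip test). In KPTC mice the picture for Rb1 was another: Rbm10 tumours were smaller than Rb1 tumours in 4 of 4 mice, by -0.85 ± 0.36 (SD, n = 4, exact sign-flip test, p = 0.125, the smallest that 4 mice allow, adjusted 0.19). Set against the same difference in KT mice, a comparison added later, the gap was -0.81 (adjusted p = 0.043, exact permutation). The Rbm10-to-Rb1 size ratio differed between KTC and KPTC by 0.76, with 8 of 9 KTC mice above every KPTC mouse (adjusted p = 0.025, exact permutation).

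Among small clones, Rbm10 fell further below KT than the other genes in KTC mice. Its log2 ratio to Apc was lower than in KT by -0.29 and that to Rb1 by -0.30, each with 9 of 9 KTC mice below every KT mouse (adjusted p = 0.0042 and 0.0063, exact permutation). The ratio to Ambra1 was lower by -0.14, with 7 of 9 mice below every KT mouse (adjusted p = 0.014, exact permutation). In KPTC mice the differences were -0.48 to Apc and -0.32 to Rb1 (adjusted p = 0.043 each, exact permutation), and -0.07 to Ambra1, which did not pass (adjusted p = 0.11, exact permutation). In tumour number, KTC mice showed Rbm10 lower against Ambra1 by -0.43 relative to KT (adjusted p = 0.046, exact permutation), with no pass against Rb1 (0.20) or Apc (0.12; adjusted p = 0.56 each, exact permutation). In KPTC mice Rbm10 number was lower relative to KT against each of the 3 other genes, by -0.33 against Ambra1, -0.98 against Rb1 and -0.50 against Apc, in 4 of 4 mice each (adjusted p = 0.029, exact permutation, with unadjusted values at the smallest that 4 against 4 mice allow).

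**Figure D4:**
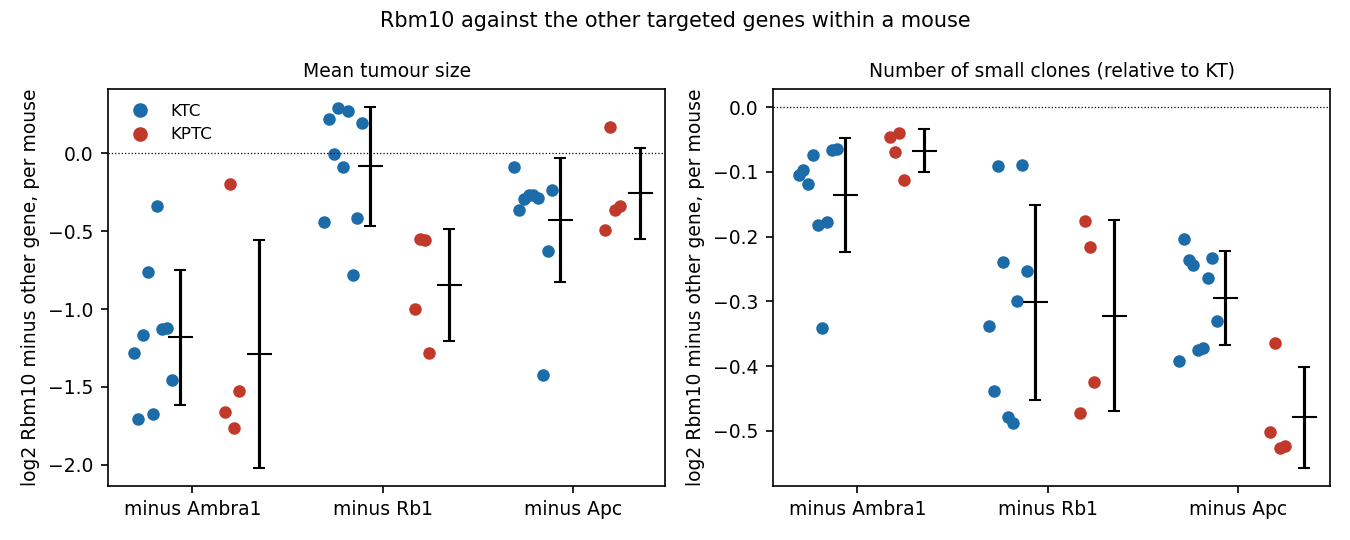
Log2 ratio of Rbm10 minus that of Ambra1, Rb1 or Apc in the same mouse, on the vertical axes, for mean tumour size (left) and for the number of small clones relative to the KT mean (right), with the other gene on the horizontal axes. Points are KTC (blue, 9) and KPTC (red, 4) mice, and bars are the mean ± SD. Nearly all points lie below 0, except for size against Rb1 in KTC, where 4 of 9 mice lie above, and 1 KPTC mouse for size against Apc.

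Over the 13 mice with Cas9, the gene whose log2 size ratio was most like that of Rbm10 was Apc, with a mean absolute difference of 0.40, followed by Rb1 at 0.47 and Ambra1 at 1.21. The step from Apc to Rb1 in this order is small beside the spread of single mice, whose SD of the size difference to Rbm10 in KTC was 0.40 for Apc and 0.38 for Rb1. The nearer gene differed by genotype. In KTC the mean difference was -0.08 to Rb1 and -0.43 to Apc, and in KPTC it was -0.85 to Rb1 and -0.26 to Apc.

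Because Rbm10 is X-linked, the 5 female and 4 male KTC mice were compared, after the other results had been seen. Rbm10 tumour size relative to inert tumours was 0.48 ± 0.18 (SD, n = 5) in females and 0.38 ± 0.55 (SD, n = 4) in males, a difference of 0.11 (adjusted p = 0.71, exact permutation). Number differed by -0.45 (adjusted p = 0.39, exact permutation) and small clones by -0.11 (adjusted p = 0.30, exact permutation). The change of the Rbm10 share with size was 1.21 ± 0.12 in 5 females and 0.83 ± 0.55 in 3 males (SD, difference 0.39, adjusted p = 0.71, exact permutation). None passed, which does not show that the sexes were alike. All KPTC mice were male, so sex and genotype cannot be told apart in part of the comparison with KTC. With male mice only, small clones in KTC were lower than in KT by -0.29 and in KPTC by -0.36, and neither could pass with 2 KT mice (exact permutation, unadjusted p = 0.13 and 0.067).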

How the data were processed

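The authors amplified and sequenced the barcode region from genomic DNA of whole tumour-bearing lungs and turned reads into cell numbers with benchmark cells added before lysis, per the labels' protocols. The deposited values, of the unit type other, are neoplastic cells per guide, barcode and mouse, with mice kept apart, per the file headers. For read trimming and barcode clustering, the sources used here name no tool. In every mouse the values were whole multiples (tolerance 0.1) of a constant step, which was taken as 1 read, and the smallest multiple was 2.

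A tumour was a clone of at least 500 cells. Its size measure was the log-normal maximum-likelihood mean, number a count and burden a sum, each as log2 of Rbm10 over the 5 inert guides of the mouse. Genotypes were compared by two-sided exact permutation of mouse labels, and guides or genes within mice by exact sign-flip tests. Adjustment was by Benjamini-Hochberg over 4 genes, 8 guides or 3 other genes. Labels do not say whether mice were littermates or processed together. The values of KPTC mice 3 and 4 are written with more digits than those of the other mice, and whether they were processed separately is not stated, so they were also tried apart from mice 1 and 2. Mice were numbered by identifier within a genotype and pair with no other mouse. Members, measures and lists were chosen with earlier results of these data known. The text names Rbm10 and its guides throughout, the other genes only against Rbm10, and of single tumours the largest of each genotype, to which the largest of KTC mouse 6 was added after its value was seen. Alternatives are given in the closing section. Size classes, the change with size, percentiles, sex and the gene ratios against KT were added after seeing the data. Python 3.11.15 was used with numpy 2.4.6, pandas 2.3.3, scipy 1.17.1 and matplotlib 3.10.9.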

Additional observations from a re-analysis of the deposited data

Results flagged for a closer look

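Single mice stood apart from the rest of their group by Dixon's criterion in 6 of the 39 groups of values tried, where chance alone flags about 1 group in 20. KT mouse 1 had a Rbm10 log2 size ratio of -0.092, beside -0.0089 to -0.0016 in the other KT mice. KTC mouse 6 stood apart for Rbm10#1, at 1.36 in size (others -0.13 to 0.61) and at 1.53 in burden (others -2.37 to -0.80). KT mouse 3 had a Rbm10#1 log2 number ratio of -2.04 (others -2.29 to -2.26). For Rbm10#2 burden, KT mouse 4 stood at -2.29 (others -3.72 to -3.51) and KPTC mouse 1 at -2.66 (others -3.74 to -3.64).

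Several values differed between KTC and KPTC by a test of that difference. Rbm10 tumour number relative to inert tumours was higher in KTC by 0.94 on the log2 scale, in 9 of 9 mice (exact permutation, adjusted p = 0.028). The ratio of Rbm10#2 to Rbm10#1 among small clones was higher in KTC by 0.18, in 9 of 9 mice (exact permutation, p = 0.0028). The log2 ratio of Rbm10 to Rb1 was higher in KTC by 0.76 in tumour size and by 1.18 in tumour number (adjusted p = 0.025 and 0.0084, exact permutation). The ratio to Apc was higher in KTC by 0.62 in tumour number and by 0.19 among small clones (adjusted p = 0.010 and 0.017, exact permutation). Rbm10 number relative to inert clones was higher in KTC, in 8 of 8 usable mice each, by 1.04 from 1000 to 2000 cells, by 1.04 from 2000 to 5000 cells and by 0.71 at 2000 cells and more (adjusted p = 0.032, 0.0081 and 0.0081, exact permutation; 25%, 75% and 100% of the targeted genes passed).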

How the results depend on the processing

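Values here are log2 differences as in the report. Under alternatives, 444 values kept their direction and side of the threshold, 94 no longer passed, 5 newly passed in the same direction and 32 changed sign, of which 1 also passed (Rbm10 minus Rb1 size in KTC at 200 cells). No paired analysis was possible because the mice of different genotypes share no animal, litter or number in the labels. Leaving out the barcodes 1 mismatch from one at least 50 times larger removed none, so its values repeat the main ones and count among the 444. A change of inert reference likewise left differences between guides, or between genes of a mouse, as they were, since the reference cancels. Some settings could not pass whatever the values: 2 against 4 mice give no p under 0.067, which holds for KPTC mice 1 and 2, or 3 and 4, against KT and for male mice against the 2 male KT mice, 3 against 2 give none under 0.1, which holds for the change with size in male KTC mice, and 4 mice give no sign-flip p under 0.125, which holds within male KTC mice. Losses of a call there say nothing of stability. Sign-flip tests within KPTC mice could not pass in any setting, so values counted there as kept on the same side of the threshold say nothing either.

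For KTC minus KT, Rbm10 size lost its call at 0.35 (minimum of 1000 cells), 0.38 (NT1 and NT2 as reference), 0.42 (Rbm10#1 only), 0.72 (95th percentile) and 0.38 (male mice), and turned at 5000 cells (-0.11). Number lost it at 0.054 (200 cells), 1.30 (1000 cells), 0.61 (Rbm10#2 only) and 0.88 (male mice). Burden lost it at 1.58 (1000 cells), 1.03 (5000 cells), 1.07 (NT1 and NT2), 0.94 (Rbm10#2 only) and 1.35 (male mice), small clones at -0.29 (male mice) and the change with size at 0.94 (male mice).

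For KPTC minus KT, size lost its call at 0.54 (mice 1 and 2), 0.81 (mice 3 and 4), 0.49 (Rbm10#2 only) and 0.65 (male mice), and turned at 5000 cells (-0.0015). Number lost it at -0.24 (mice 1 and 2), -0.32 (mice 3 and 4), -0.25 (NT1 and NT2), -0.25 (Rbm10#1 only), -0.32 (male mice), -0.24 (10 reads), -0.049 (1000 cells) and -0.27 (shared barcodes kept where largest), and turned at 5000 cells (0.63). Burden turned with Rbm10#2 only (-0.16). Small clones lost it at -0.22 (mice 1 and 2), -0.43 (mice 3 and 4), -0.31 (NT1 and NT2), -0.33 (Neo1, Neo2 and Neo3), -0.36 (male mice), -0.34 (shared barcodes) and -0.37 (50 to 500 cells). The change with size lost it at 0.42 (mice 1 and 2), 0.96 (mice 3 and 4), 0.70 (Rbm10#2 only), 0.69 (male mice) and 0.44 (upper class from 1000 cells). Small clones with either inert reference, shared barcodes or 50 to 500 cells kept an unadjusted p of 0.029 (exact permutation). Number with shared barcodes did too. That is the smallest p that 4 against 4 mice allow, so these losses depended on the other genes.

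For KTC minus KPTC, size turned at 0.14 (95th percentile), 0.068 (Rbm10#2 only), 0.060 (median), 0.14 (200 cells) and 0.70 (number-matched). Number lost its call at 0.90 (mice 1 and 2), 0.98 (mice 3 and 4), 1.19 (male mice), 1.34 (1000 cells) and 0.59 (5000 cells). Small clones turned at -0.091 (mice 1 and 2), -0.019 (NT1 and NT2), -0.037 (Rbm10#1 only) and -0.035 (50 to 500 cells). The change with size passed at 0.56 (Neo1, Neo2 and Neo3), 0.80 (Rbm10#2 only) and 0.65 (upper class from 1000 cells).

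Between the guides, Rbm10#2 minus Rbm10#1 size turned in KTC at -0.14 (male mice), -0.047 (5000 cells) and -0.015 (number-matched), and in KPTC at 0.067 (mice 1 and 2), 0.037 (median) and 0.070 (5000 cells). Their number ratio, KTC minus KT, turned at 5000 cells (0.28). In KTC, Rbm10 minus Apc size lost its call at -0.48 (95th percentile), -0.34 (Rbm10#2 only), -0.64 (male mice), -0.18 (median), -0.50 (1000 cells), -0.10 (200 cells), -0.41 (5000 cells) and -0.42 (number-matched). Rbm10 minus Rb1 size turned at 0.0029 (Rbm10#2 only), 0.10 (median), 0.22 (200 cells, adjusted p = 0.029, exact sign-flip test) and 0.074 (number-matched), and Rbm10 minus Ambra1 size lost its call at -1.01 (male mice) and -0.27 (5000 cells). The causes were not tested.

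Without 1 mouse, KTC minus KT ran from 0.38 to 0.53 in size, from 0.54 to 0.75 in number and from 0.84 to 1.27 in burden. KPTC minus KT ran from 0.60 to 0.74 in size, from -0.33 to -0.20 in number, from 0.23 to 0.90 in burden, from -0.38 to -0.29 for small clones and from 0.59 to 0.83 for the change with size. KTC minus KPTC ran from 0.82 to 1.03 in number, from 0.18 to 0.89 in burden, from -0.024 to 0.072 for small clones and from 0.35 to 0.58 for the change with size. The number ratio of the guides, KTC minus KT, ran from -0.11 to 0.011, their size difference in KPTC from -0.54 to 0.051, and Rbm10 minus Rb1 size in KTC from -0.13 to 0.0041.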
